A study of Mus musculus with 4 samples.

Results

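The genes described here encode proteins of DNA replication and mitosis. They were chosen by name as 22 replication and 22 mitosis genes, and where a gene had several probe sets the brightest on average was taken. Of the 44 listed genes, 43 were measured among 18193 genes tested (22 replication and 21 mitosis genes), and Ccnb1 was not analysed here. Their RNA was measured on Affymetrix arrays in bone marrow cells sorted as lineage-negative, cKit-positive and Sca1-positive (LSK), in which hematopoietic stem cells and early multipotent progenitors are found. The WT group (n = 2) had the genotype Ncstn flox/flox, and the Ncstn KO group (n = 2) had Ncstn flox/flox with Mx1-cre+, so that all mice carried floxed Ncstn and only the second group carried the recombinase. Ncstn encodes nicastrin, a subunit of gamma-secretase, the protease that cleaves Notch receptors. The Mx1 promoter responds to interferon and is not restricted to LSK cells, and an effect of cre itself and one of the deletion cannot be told apart. All mice, which were littermates, were given polyIC, an inducer of interferon, in 3 injections of 20 µg per g of body weight from 14 days of age. The sort was done 4 weeks after injection, when the mice were 6 weeks old. Each array came from 1 mouse: WT replicate 1 and Ncstn KO replicate 2 were male, WT replicate 2 and Ncstn KO replicate 1 female.

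Proliferating cells copy their genome in S phase and divide it in mitosis. Before S phase the origin recognition complex, Cdc6 and Cdt1 load the ring of Mcm proteins onto DNA, and Cdc45 and the GINS complex turn that ring into the active helicase. E2F transcription factors drive many of the genes needed for replication. Mitosis genes are mostly transcribed later, in G2 and M phase, often through a promoter element called the cell cycle genes homology region (CHR) together with CCAAT boxes bound by NF-Y. Long-term stem cells are largely quiescent, whereas many of the other multipotent progenitors in the LSK fraction divide, so the level of these genes in sorted LSK cells is a common readout of cycling. In bulk RNA, fewer cycling cells and less RNA per cell cannot be told apart.

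The promoters of both classes were searched for these letters. RefSeq windows of GRCm38.p6, from 250 bases before to 50 after the gene start, were held for 35 of the 43 members (18 replication and 17 mitosis genes). E2F letters (the string TTTGGCG, the string TTTCGCG, the string TTTGCCG or the string TTTCCCG, on either strand) stood in the windows of 9 of 18 replication genes and 4 of 17 mitosis genes (23.5%), against 7.65% of 27025 genes in the table. CHR letters (TTTGAA, either strand) stood in 3 of 18 replication genes (16.7%) and 13 of 17 mitosis genes (76.5%), against 20.2% of all genes. CCAAT letters (either strand) stood in 11 of 18 (61.1%) and 15 of 17 (88.2%), against 41.1%. CHR and CCAAT letters stood together in 13 mitosis genes and 2 replication genes, against 8.97% of all genes. A gene with several windows was counted once if any window held a match. A match is a description of the letters and not evidence of binding.

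**Figure D1:**
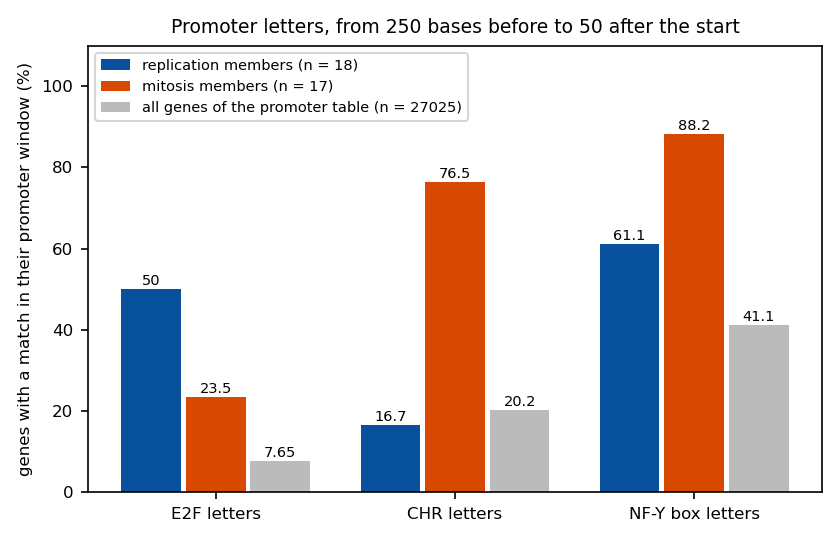
Share of genes (vertical axis, %) whose promoter window holds the letters named on the horizontal axis, for replication members (blue), mitosis members (orange) and all genes of the promoter table (grey); the NF-Y box letters are CCAAT. E2F letters were held by 9 of 18 replication and 4 of 17 mitosis members (7.65% of all genes), and CHR letters by 3 and 13 of them (20.2%).

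The sequences below show these letters in members whose values follow, with each match in capitals and the 250 bases that end just before the gene start. Pola1, Ttk and Nusap1 stand for the members with the smallest p for genotype in their class. Mcm5 and Top2a were added after the letters had been searched. Each had the smallest p among the remaining members of its class whose 250 bases held E2F letters (Mcm5) or CHR and CCAAT letters (Top2a). In Mcm5 the capitals mark a pair of overlapping E2F matches and 2 CCAAT matches, in Pola1 an E2F and a CCAAT match, in Top2a 2 CHR and 6 CCAAT matches, and in Ttk 2 CCAAT matches. Nusap1 held neither CHR nor CCAAT letters in its window, only 1 E2F match far from the start.
Mcm5, chr8:75109259-75109508, plus strand: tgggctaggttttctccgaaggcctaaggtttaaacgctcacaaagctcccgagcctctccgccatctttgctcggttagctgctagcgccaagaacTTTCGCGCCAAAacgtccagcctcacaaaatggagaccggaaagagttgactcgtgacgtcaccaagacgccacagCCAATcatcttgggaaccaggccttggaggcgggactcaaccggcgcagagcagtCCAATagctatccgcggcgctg
Pola1, chrX:93632156-93632405, minus strand: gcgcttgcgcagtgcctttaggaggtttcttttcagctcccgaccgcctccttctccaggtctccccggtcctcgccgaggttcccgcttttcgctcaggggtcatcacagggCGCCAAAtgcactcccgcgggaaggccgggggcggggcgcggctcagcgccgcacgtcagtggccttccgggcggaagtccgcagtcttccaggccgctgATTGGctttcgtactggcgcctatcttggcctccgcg
Top2a, chr11:99024190-99024439, minus strand: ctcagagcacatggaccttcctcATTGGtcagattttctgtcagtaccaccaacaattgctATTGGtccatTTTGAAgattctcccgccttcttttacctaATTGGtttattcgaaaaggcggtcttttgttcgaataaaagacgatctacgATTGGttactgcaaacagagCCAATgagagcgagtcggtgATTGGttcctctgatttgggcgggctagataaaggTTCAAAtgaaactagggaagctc
Ttk, chr9:83834439-83834688, plus strand: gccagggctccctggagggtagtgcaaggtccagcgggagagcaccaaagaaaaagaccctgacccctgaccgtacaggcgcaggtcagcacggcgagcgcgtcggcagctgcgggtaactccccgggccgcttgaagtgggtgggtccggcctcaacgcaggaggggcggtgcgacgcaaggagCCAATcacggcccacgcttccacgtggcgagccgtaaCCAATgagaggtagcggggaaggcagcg
Nusap1, chr2:119618048-119618297, plus strand: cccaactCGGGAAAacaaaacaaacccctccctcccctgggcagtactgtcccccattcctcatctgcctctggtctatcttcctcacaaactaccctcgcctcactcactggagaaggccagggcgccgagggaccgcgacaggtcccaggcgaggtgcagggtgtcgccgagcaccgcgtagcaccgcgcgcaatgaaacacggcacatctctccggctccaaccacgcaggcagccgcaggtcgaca
In Lig1 and Ttk the matches lay just past the start, and 30 bases around them are shown, with the E2F letters of Lig1 and the CHR letters of Ttk in capitals.
Lig1, chr7:13278835-13278864, plus strand: ccctccCGCCAAAgtgcgCGCGAAAtctgt
Ttk, chr9:83834684-83834713, plus strand: cagcggggaaatTTCAAAcgtgtttccgga

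The labels were checked on Ncstn itself, with log2 intensities of 9.05 on WT replicate 1, 8.98 on WT replicate 2, 7.58 on Ncstn KO replicate 1 and 7.91 on Ncstn KO replicate 2. Its change was -1.27 (SE 0.22, unadjusted p = 0.00104, limma adjusted p = 0.257), and both Ncstn KO arrays lay below both WT arrays. A change is the mean log2 intensity in Ncstn KO less that in WT, each over n = 2, and its SE comes from limma. Of the LSK surface genes, Kit ran from 11.57 to 11.94 over the arrays and Cd34 from 12.77 to 12.81, while Ly6a, which encodes Sca1, was not analysed here. Over all 18193 genes, limma found 0 past an adjusted p of 0.05, while 335 genes were lower and 902 higher in Ncstn KO by unadjusted p under 0.05. For a single gene the smallest p that permuting these arrays exactly can give, two-sided, is 0.333.

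Replication and mitosis genes lay slightly below WT in Ncstn KO, mostly through 1 array, and this held more for mitosis than for replication genes. The mean was below WT for 40 of 43 members (44.2% of all genes lay below), with a median change of -0.12 over the members against 0.025 over all genes. None of the 43 passed over all genes (smallest limma adjusted p = 0.719), and 1 of them, Pola1, had an unadjusted p under 0.05 in the lower direction (1.84% of all genes), against 0 of 43 in the higher direction (4.96% of all genes). Ncstn KO replicate 2 was the lowest of the 4 arrays for 41 of 43 members, against 35.1% of all genes, and lay below Ncstn KO replicate 1 for 43 of 43. Without Ncstn KO replicate 2 only 23 of the 43 were below WT, 14 of 22 replication and 9 of 21 mitosis genes. The median change of all genes was then 0.074. Without Ncstn KO replicate 1 all 43 were below WT.

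The median distance of the 22 replication genes from their WT mean was -0.034 on Ncstn KO replicate 1 and -0.26 on Ncstn KO replicate 2. For the 21 mitosis genes it was 0.036 and -0.27, and over all genes 0.074 and -0.024. The WT arrays lay within 0.054 of their common mean by the same medians, for either class. The replicates stood further apart in Ncstn KO (median SD 0.20) than in WT (0.082), and the SD was larger in Ncstn KO for 34 of 43 members, against 63% of all genes. The median change was -0.12 for replication and -0.096 for mitosis genes. With each gene set to its mean over the 4 arrays, the class medians had a pooled SD between replicate arrays of 0.14 and 0.16.

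**Figure D2:**
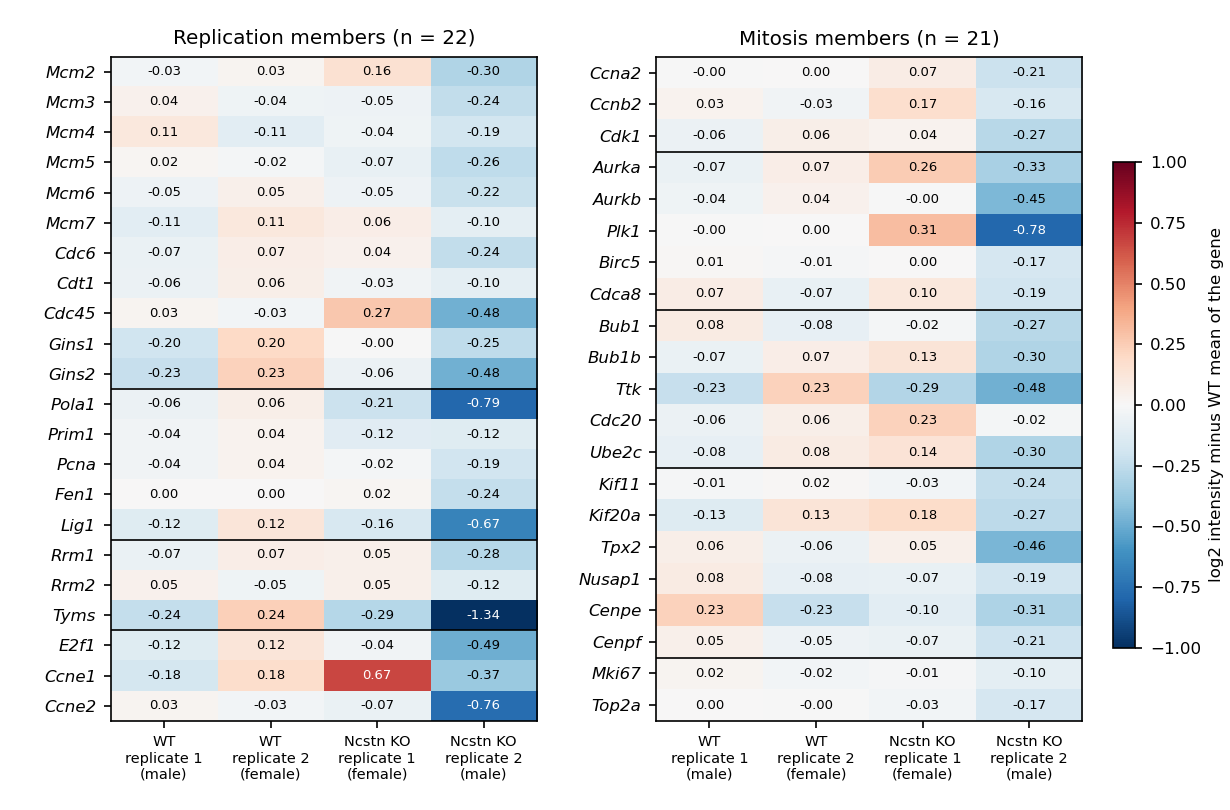
Log2 intensity of each measured member minus its WT mean (colour and printed number), by array (columns), for replication members (left) and mitosis members (right), with lines between role groups. Colours saturate at 1 and -1, which only Tyms passes; the column of Ncstn KO replicate 2 is the lowest for 41 of 43 members.

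All 11 origin licensing and helicase genes had means below WT, with a median change of -0.11 and 0 past the test. Mcm5, a subunit of the Mcm ring, had log2 intensities of 12.11 and 12.07 in WT and 12.02 and 11.83 in Ncstn KO (replicates 1 and 2 in this order here and below). Its change was -0.17 (SE 0.097, limma adjusted p = 0.877), and both Ncstn KO arrays lay below both WT arrays, as for 12.8% of all genes. Mcm6, another subunit, stood at 12.83 and 12.94 in WT and 12.84 and 12.66 in Ncstn KO, a change of -0.14 (SE 0.087), with Ncstn KO replicate 1 level with a WT array. Mcm2 was 11.67 and 11.72 in WT and 11.85 and 11.40 in Ncstn KO, so that the Ncstn KO arrays lay on either side of WT (change -0.072, SE 0.16). The remaining Mcm genes differed by -0.15 (Mcm3), -0.11 (Mcm4) and -0.017 (Mcm7), and only Mcm7, at 12.99 on WT replicate 1, did not have its lowest value on Ncstn KO replicate 2. Among the loading factors Cdc6 differed by -0.10 and Cdt1 by -0.066. Of the helicase cofactors, Gins2 differed by -0.27 (SE 0.21), Gins1 by -0.13 and Cdc45 by -0.11. Cdc45 spread most within Ncstn KO in this group, with 10.80 on replicate 1 and 10.05 on replicate 2, outside the WT values of 10.56 and 10.51 on both sides.

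The 5 genes of primer synthesis and the lagging strand all lay below WT, with 0 past the test. In 3 of them both Ncstn KO arrays were below both WT arrays, as for 12.8% of all genes. Pola1, the catalytic subunit of the polymerase that starts each new strand, was 11.22 and 11.33 in WT and 11.06 and 10.49 in Ncstn KO. It was 1.41-fold lower (log2 -0.50, SE 0.20, unadjusted p = 0.045, limma adjusted p = 0.719), and the arrays did not overlap. The change was -0.21 without Ncstn KO replicate 2 and -0.79 without Ncstn KO replicate 1, and -0.0079 for the mean with its dim second probe set. Lig1, the ligase that joins lagging-strand fragments, was 11.31 and 11.56 in WT and 11.27 and 10.76 in Ncstn KO, a change of -0.41 (SE 0.19, limma adjusted p = 0.793) without overlap. It was -0.16 without Ncstn KO replicate 2 and -0.67 without Ncstn KO replicate 1. Prim1, the primase subunit that makes the RNA primers, differed by -0.12 (SE 0.071), and its Ncstn KO arrays were nearly level at 12.55 and 12.54, both below WT. Pcna, the sliding clamp, was 13.34 and 13.41 in WT and 13.35 and 13.18 in Ncstn KO (change -0.10, SE 0.077), with the groups overlapping. Fen1, a flap nuclease of lagging-strand maturation, differed by -0.11 and overlapped too.

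Of the 3 genes of nucleotide supply, Tyms had the largest change of any member. Tyms, which encodes the enzyme that makes thymidylate, was 8.04 and 8.52 in WT and 7.99 and 6.94 in Ncstn KO, a 1.76-fold lower mean (log2 -0.81, SE 0.39, limma adjusted p = 0.8). It was -0.29 without Ncstn KO replicate 2, -1.34 without Ncstn KO replicate 1 and -0.41 for the mean of all its probe sets. The value rests on 1 of its 4 probe sets. The others had changes of 0.0090, -0.35 and -0.47, and in 2 of these 3 Ncstn KO replicate 2 was the highest array. Rrm1, a ribonucleotide reductase subunit, was 12.07 and 12.21 in WT and 12.19 and 11.85 in Ncstn KO (change -0.12, SE 0.13), so that only Ncstn KO replicate 2 lay below both WT arrays. Rrm2, the other subunit, differed by -0.037.

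The controllers of entry into S phase varied more between arrays. Ccne2, a cyclin that activates Cdk2 at the start of S phase, was 9.83 and 9.77 in WT and 9.73 and 9.04 in Ncstn KO (change -0.41, SE 0.25), without overlap but with most of the difference on replicate 2: the change was -0.066 without that array and -0.76 without Ncstn KO replicate 1. E2f1, which activates replication genes, was 10.53 and 10.77 in WT and 10.62 and 10.17 in Ncstn KO (change -0.26, SE 0.19), with overlap. The other E cyclin, Ccne1, had a mean above WT (0.15, SE 0.36), which turned to -0.049 when arrays were scaled to the hybridization controls. Its Ncstn KO arrays stood at 9.46 and 8.42, the highest and the lowest of the 4.

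Among the mitosis genes, cyclins and their kinase had overlapping groups. Cdk1, the kinase that drives entry into mitosis, was 12.21 and 12.33 in WT and 12.31 and 12.00 in Ncstn KO, a change of -0.12 (SE 0.12, limma adjusted p = 0.967). Its partner Ccna2, which also acts in S phase, was 12.20 and 12.21 in WT and 12.28 and 11.99 in Ncstn KO (change -0.070, SE 0.11). Ccnb2, a B-type cyclin, had a change of 0.0055 (SE 0.13), which became negative when arrays were centred on their median (-0.083) or scaled to the controls (-0.19).

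Mitotic kinases and the chromosomal passenger complex, which corrects faulty chromosome attachments, lay below WT in 5 of 5 cases with a median change of -0.083, and in each of them Ncstn KO replicate 2 was lowest. Aurkb, the kinase of the complex, was 10.995 and 11.08 in WT and 11.04 and 10.59 in Ncstn KO (change -0.23, SE 0.17). Birc5, the survivin subunit, was 12.65 and 12.63 in WT and 12.64 and 12.47 in Ncstn KO (change -0.083, SE 0.084). Cdca8, the borealin subunit, differed by -0.045 and Aurka, the centrosomal kinase, by -0.035. Plk1, a kinase needed for spindle assembly, differed by -0.24 (SE 0.35) and had the widest spread of any member within Ncstn KO, 1.09 log2 units, with 9.88 on replicate 1 above both WT arrays and 8.78 on replicate 2 below both (9.56 and 9.57).

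Of 5 genes of the spindle checkpoint and the anaphase-promoting complex, 4 were lowest on Ncstn KO replicate 2. Ttk, the kinase that starts checkpoint signalling, was 10.56 and 11.02 in WT and 10.50 and 10.31 in Ncstn KO, a change of -0.38 (SE 0.18, limma adjusted p = 0.798), the largest among mitosis genes, without overlap. It was -0.16 without WT replicate 2 and -0.61 without WT replicate 1. Bub1, a checkpoint kinase, was 11.02 and 10.85 in WT and 10.92 and 10.66 in Ncstn KO (change -0.15, SE 0.14). Bub1b, which restrains the anaphase-promoting complex, differed by -0.085, and Ube2c, the ubiquitin-conjugating enzyme of that complex, by -0.080. Cdc20, its activator, had a mean above WT (0.10, SE 0.12; -0.091 when arrays were scaled to the controls), and its lowest array was WT replicate 1.

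Spindle and kinetochore genes were all below WT (6 of 6, median -0.13), with no member past the test. Nusap1, which bundles spindle microtubules, was 12.16 and 12.00 in WT and 12.01 and 11.89 in Ncstn KO (change -0.13, SE 0.099). Kif11, the motor that pushes spindle poles apart, was 11.67 and 11.70 in WT and 11.65 and 11.44 in Ncstn KO (change -0.13, SE 0.11), without overlap although Ncstn KO replicate 1 was close to WT. Tpx2, an activator of Aurka on the spindle, differed by -0.20, as did the kinetochore motor Cenpe, while the kinetochore protein Cenpf differed by -0.14 and Kif20a, a motor of cytokinesis, by -0.043.

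The 2 genes most used as proliferation markers had small changes. Mki67, which encodes the Ki-67 protein that coats mitotic chromosomes, was 12.42 and 12.37 in WT and 12.38 and 12.30 in Ncstn KO (change -0.055, SE 0.078, limma adjusted p = 0.978). Top2a, the topoisomerase that untangles sister chromatids, was 12.64 and 12.64 in WT and 12.61 and 12.47 in Ncstn KO (change -0.096, SE 0.079). Top2a did not overlap between the groups, and Ncstn KO replicate 1 was close to WT.

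**Figure D3:**
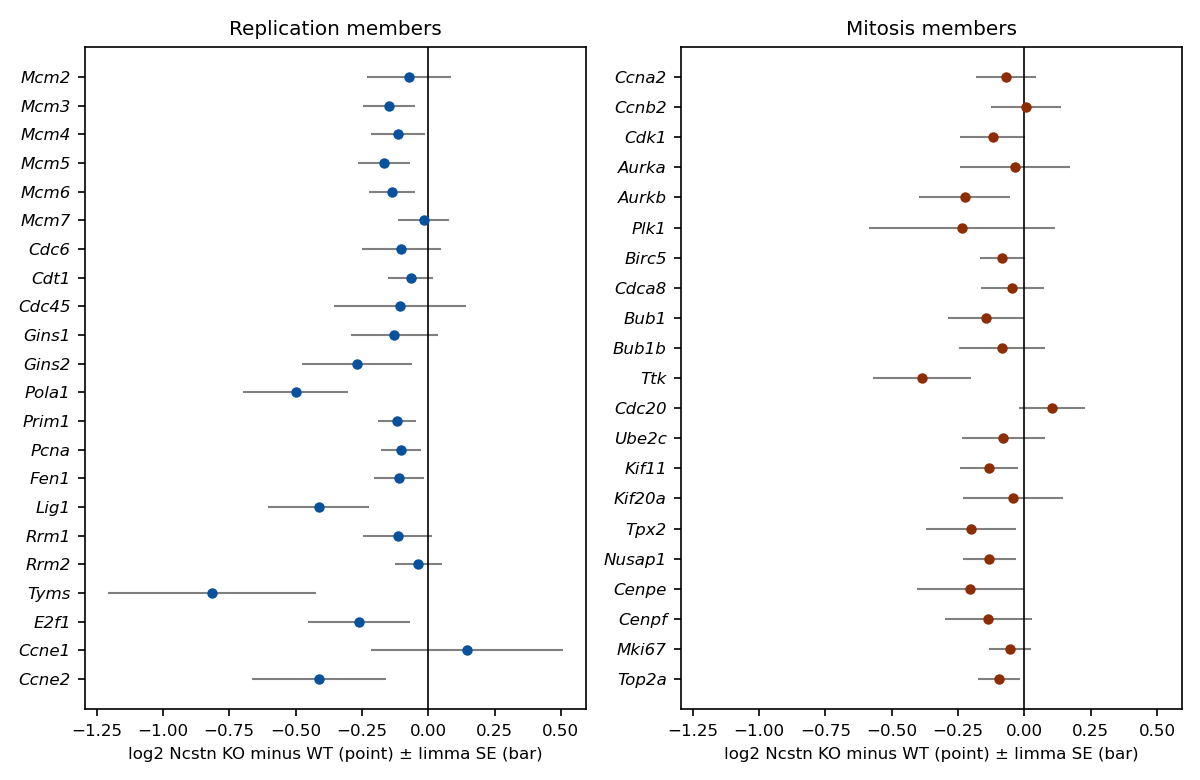
Change of each measured member (points, log2 Ncstn KO minus WT, horizontal axis) with the limma SE (bars), for replication (left) and mitosis members (right). Points lie left of 0 for 40 of 43 members, from -0.81 for Tyms to 0.15 for Ccne1.

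In all, both Ncstn KO arrays lay below both WT arrays for 11 of 43 members (25.6%, against 12.8% of all genes) and above them for 0 (21.3% of all genes). The 11 were Mcm3, Mcm5, Pola1, Prim1, Lig1, Tyms, Ccne2, Ttk, Kif11, Cenpf and Top2a. A further set of probe sets measured 31 of the members again: of 45 other probe sets above the 30th percentile of gene means, Ncstn KO replicate 2 was lowest in 33, and 35 had means below WT, with a median change of -0.17. The other 10 belonged to Aurkb, Ccne1, Cdc20, Cdt1, Cenpf, Mcm7, Top2a, Tpx2 and Tyms. For Top2a this second probe set had a change of 0.38 and its highest value on Ncstn KO replicate 2. For Pola1 the second probe set was dim, at 2.65 to 3.45.

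Genes of the same processes outside the 44 were read from lists chosen by function. Of 42 other replication genes 38 lay below WT (44.2% of all genes), with a median change of -0.15 and 0 past the test. Ncstn KO replicate 2 was lowest in 31 of them (35.1% of all genes). Both Ncstn KO arrays were below both WT arrays in 17 (40.5%, against 12.8% of all genes). Cdc7, the kinase that fires licensed origins, was 11.64 and 11.54 in WT and 11.18 and 11.09 in Ncstn KO, a change of -0.45 (SE 0.10, unadjusted p = 0.00471, limma adjusted p = 0.405). Gins3, a subunit of the GINS complex, was 9.996 and 10.14 in WT and 9.65 and 9.46 in Ncstn KO (change -0.51, SE 0.16). In Cdc7 and Gins3 both Ncstn KO arrays lay below both WT arrays and close to each other. Chek1, the checkpoint kinase of stalled forks, differed by -0.49 (SE 0.19), with 11.30 and 10.75 in Ncstn KO. Without Ncstn KO replicate 2 the median of these genes was -0.056, with 30 of 42 below WT.

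Of 50 other mitosis genes 36 lay below WT (44.2% of all genes), with a median change of -0.072 and 0 past the test. Ncstn KO replicate 2 was lowest in 40 (35.1% of all genes). Both Ncstn KO arrays were below both WT arrays in 10 (20%, against 12.8% of all genes). Hmmr, a microtubule-associated protein, was 10.98 and 10.92 in WT and 10.80 and 10.57 in Ncstn KO, a change of -0.26 (SE 0.13). The condensin subunit gene Smc2 differed by -0.19 (SE 0.094) and the mitotic kinase gene Pbk by -0.15 (SE 0.095). Hmmr, Smc2 and Pbk had the smallest p of this list, and in these 3 the groups did not overlap. Without Ncstn KO replicate 2 the median was 0.054, with 17 of 50 below WT.

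**Figure D4:**
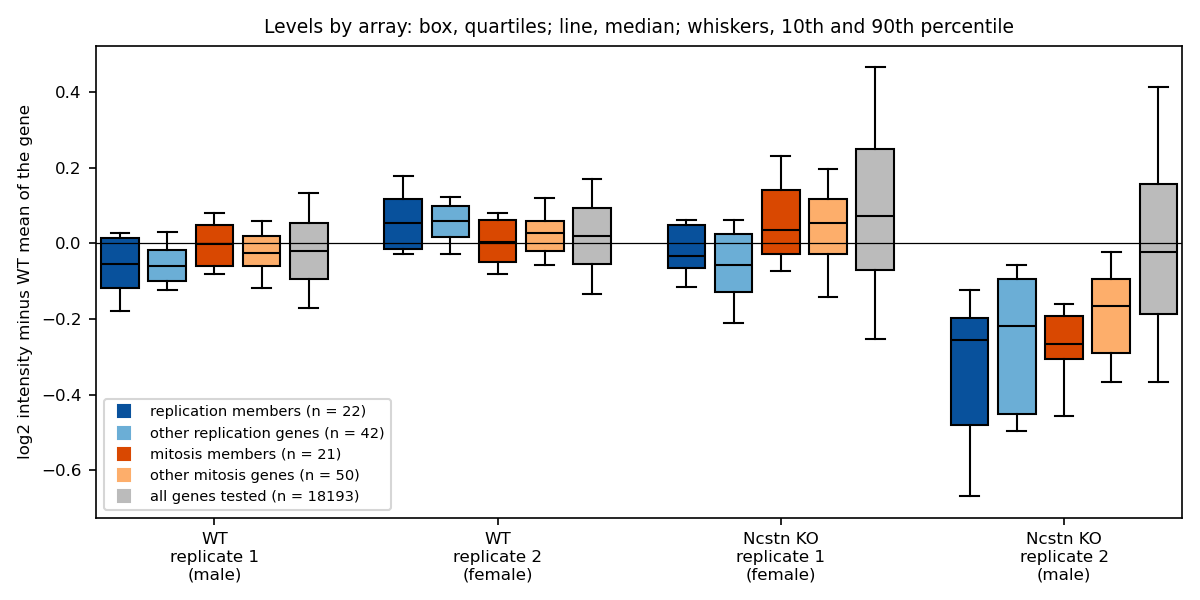
Log2 intensity minus the WT mean of each gene (vertical axis) on the 4 arrays, for the replication and mitosis members, the other genes of both processes and all genes tested; boxes show quartiles, lines medians and whiskers the 10th and 90th percentiles. On Ncstn KO replicate 2 the medians of the members are -0.26 and -0.27, against -0.024 for all genes.

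Each genotype had 1 array of each sex, so the change was also read within each sex, as 1 array minus 1 array and with no test. In the male pair (Ncstn KO replicate 2 minus WT replicate 1), 21 of 22 replication and 20 of 21 mitosis genes lay below WT (49.9% of all genes), with medians of -0.24 and -0.23. In the female pair (Ncstn KO replicate 1 minus WT replicate 2), 16 of 22 replication genes but 6 of 21 mitosis genes lay below (40% of all genes), with medians of -0.049 and 0.059. The other replication and other mitosis genes gave 37 of 42 and 22 of 50 in the female pair and 33 of 42 and 45 of 50 in the male pair. The members below WT by more than 0.2 in both pairs, a limit set after the values were seen, were Pola1 (-0.27 and -0.73, female and male), Lig1 (-0.28 and -0.55), Tyms (-0.53 and -1.10), Gins2 (-0.29 and -0.24) and Ttk (-0.52 and -0.25). The share of all genes past this limit is not given here, so the list is a description only. Plk1 and Cdc45 stood on opposite sides, at 0.31 and 0.29 in the female and -0.78 and -0.51 in the male pair. Sex and animal cannot be told apart here, with 1 mouse per sex and genotype.

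**Figure D5:**
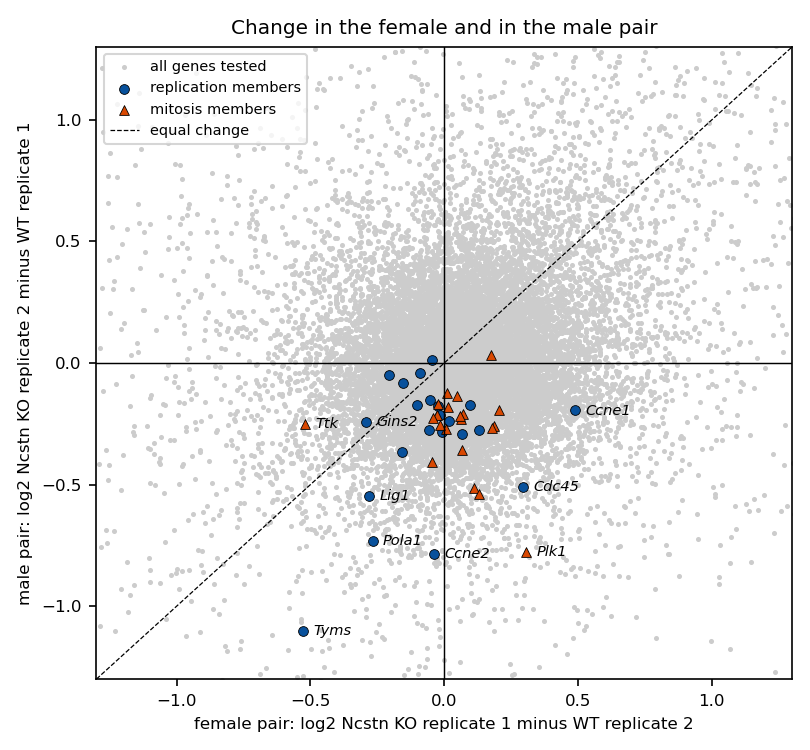
Change in the female pair (horizontal axis, log2) against the change in the male pair (vertical axis, log2) for replication members (blue circles), mitosis members (orange triangles) and all genes (grey; those beyond 1.3 on either axis are outside the frame), with a dashed line where both changes are equal. Members lie below 0 on the vertical axis in 41 of 43 cases and on both sides of 0 on the horizontal axis (22 of 43 below).

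In a fit with genotype and sex, members were mostly higher in females. The female mean was above the male mean for 40 of 43 members (63.2% of all genes), with a median difference, female minus male, of 0.22 for replication and 0.15 for mitosis genes against 0.068 for all genes. Both female arrays lay above both male arrays for 20 of 43 members (46.5%, against 29% of all genes). None passed over all genes (4 of 18193 genes passed, 0.022%), and 12 of 43 had an unadjusted p under 0.05, all higher in females, against 5.53% of all genes. The smallest p belonged to Gins2, with 11.54 and 11.25 on the female and 11.07 and 10.83 on the male arrays (difference 0.44, SE 0.090, limma adjusted p = 0.574). Mcm7 followed with 0.19 (SE 0.046) and Gins1 with 0.33 (SE 0.084), at the same adjusted p. Without Ncstn KO replicate 2, which is male, a fit with sex alone gave median differences of 0.083 (replication) and 0.035 (mitosis). Genotype was not held apart in that fit. Within WT, the female array less the male array had medians of 0.11 (replication) and 0.0052 (mitosis).

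Markers of other cell types that the sort could hold were read on the same arrays. Mature neutrophil and monocyte genes lay above WT for 12 of 12 measured genes (44.2% of all genes lay below), with a median change of 0.67. Of these genes, S100a8 was bright on every array (13.24 to 13.62 on the log2 scale), while Mmp8 ran from 7.57 to 9.02. On Ncstn KO replicate 2 10 of the 12 genes were highest, against 4201 of all 18193 genes. Both Ncstn KO arrays lay above both WT arrays for 6 of the 12, against 21.3% of all genes. Among these, Ccr2, a chemokine receptor of monocytes, was 8.82 and 8.60 in WT and 10.50 and 9.92 in Ncstn KO, thus highest on replicate 1, and Hp, which encodes haptoglobin, was 10.91 and 10.39 against 11.74 and 11.94. Their summed linear intensity, of which S100a9 made up 23.4% to 32.8%, was 55100 and 43900 in WT and 50200 and 66500 in Ncstn KO.

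Of 7 measured B cell genes 4 lay above and 3 below WT, with a median change of 0.0065. The surrogate light chain genes Vpreb1 and Igll1 were highest on Ncstn KO replicate 2 (11.78 and 10.61), and the summed intensity was 8150 there against 3780 to 4820 on the other arrays. Ms4a1, which encodes CD20, was 7.79 and 7.94 in WT and 5.74 and 5.74 in Ncstn KO (change -2.12, SE 0.24, limma adjusted p = 0.161), and the adaptor gene Blnk differed by -0.84. Of 7 erythroid genes 4 lay above and 3 below WT, with a median of 0.026. This median was the change of Hba-a1, which was dim at 3.04 to 3.20 on the log2 scale. Epb42 was dim too (3.26 to 3.53), and both were among the 4 above. The sum was 5380 to 7010 over the arrays, of which the transferrin receptor gene Tfrc made up 75.2% to 85.7%. The 3 below were Alas2, the first enzyme of heme synthesis in red cells (6.97 and 6.72 in WT, 5.09 and 5.99 in Ncstn KO), Slc4a1, the red cell anion exchanger (change -1.05), and Trim10 (-1.10). In each of these 3 both Ncstn KO arrays lay below both WT arrays (12.8% of all genes) and Ncstn KO replicate 1 was lowest (16.3% of all genes). Of 7 T and NK cell genes 3 lay above and 4 below WT, with a median of -0.030. Their sum of 7220 to 7730 was 87.5% to 93.8% Nkg7, while Gzmb, which encodes granzyme B, was 8.61 and 7.10 in Ncstn KO, a change of 1.69 (SE 0.49), Cd4 differed by 0.59 and Cd3e was 4.55 to 5.14 over the arrays. Of 6 LSK surface genes 2 lay above and 4 below WT, with a median of -0.039 and a sum of 29100 to 30900. Slamf1, which encodes CD150, was 10.44 and 9.64 in WT and 11.07 and 10.68 in Ncstn KO (change 0.83, SE 0.28, unadjusted p = 0.0259, limma adjusted p = 0.633).

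The log2 difference between 3' and 5' probe sets of the Gapdh control was 0.77 on Ncstn KO replicate 2 and 0.65 to 0.71 on the other arrays, and that of the actin control was 0.94 against 0.79 to 1.02. The part of these genes and controls in the low replication and mitosis values of this array was not tested. The spiked hybridization controls had a mean 0.20 higher in Ncstn KO. With arrays scaled to these controls the median change was -0.17 for all genes, and it was -0.31 (replication) and -0.29 (mitosis) for the members, or -0.14 and -0.12 relative to all genes.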

How the data were processed

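The deposited values were probe set intensities on a linear scale, made by the authors with RMA as the submitters' processing notes name it (no version is named there). Per the labels' protocols, 5 ng of total RNA was amplified and biotin-labelled before hybridization, which can favour the 3' ends of transcripts. Log2 was taken before testing. Of 45101 probe sets, 64 controls were left out, and 34945 named 1 gene in GEO's platform annotation, which can be old (9160 were unnamed here and 932 named several genes). The number of arrays limits the precision, and signal over background was not assessed. Replicates were separate mice.

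Differences were fitted on 18193 genes with limma 3.58.1 in R 4.3.3 (lmFit, eBayes with a trend, two-sided, Benjamini-Hochberg at 0.05), with genotype, or genotype and sex, as terms; the script was tested on simulated data. When an array was left out, the sex difference was fitted with sex alone. All 44 listed genes are accounted for. Values on all arrays are given for the 2 members of each role with the smallest p and for common markers (Mki67, Top2a, Pcna, Mcm2, Cdk1 and Ccnb1, the last not analysed here); up to 3 genes with the smallest p are named from each other list and for sex, and promoters for the 2 members of each class with the smallest p. The promoters of Mcm5 and Top2a, and other named members, were added after values were seen. Members, lists and tests were chosen with earlier results of these data known. Alternatives were other scalings, probe set choices, filters, variance models, blocks and leaving out each array. Figures used matplotlib 3.10.9.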

Additional observations from a re-analysis of the deposited data

Results flagged for a closer look

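The change had opposite signs in the female and the male pair for 21 of 43 members (48.8%, against 44.3% of all genes), 7 replication and 14 mitosis genes. Of these 20 were above WT in the female and below it in the male pair, a combination found in 27.1% of all genes. The difference between the pairs was not tested, since each pair is 1 array minus 1 array. The median of the mitosis genes was 0.059 for females and -0.23 for males. Among replication genes the change in the female pair was 0.13 for Mcm2, 0.065 for Mcm4, 0.29 for Cdc45, 0.018 for Fen1, 0.097 for Rrm2 and 0.49 for Ccne1. Mcm7 alone went the other way, at -0.044 (female) and 0.011 (male). Among cyclins, kinases and passenger genes it was 0.072 for Ccna2, 0.20 for Ccnb2, 0.19 for Aurka, 0.31 for Plk1, 0.013 for Birc5 and 0.18 for Cdca8. Among checkpoint genes it was 0.067 for Bub1, 0.061 for Bub1b and 0.059 for Ube2c. The female pair gave 0.048 for Kif20a, 0.11 for Tpx2, 0.0077 for Nusap1, 0.13 for Cenpe and 0.012 for Mki67.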

How the results depend on the processing

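With all arrays kept, 394 of 400 changes of members and other named genes kept their direction. For many of them this was fixed beforehand. The filter on dim genes, the variance model and the blocks left each change as it was. Centring on the median and scaling to the controls lowered every gene by the same amount, so genes below WT stayed below. The mean of all probe sets of a gene gave 0.026 for Cdt1 and 0.068 for Top2a. Scaling to the hybridization controls gave -0.049 for Ccne1, -0.091 for Cdc20 and -0.19 for Ccnb2, and centring on the median gave -0.083 for Ccnb2. These scalings moved the median of all genes to -0.17 and -0.063, and the control scaling gave medians of -0.31 (replication) and -0.29 (mitosis). Repeated quantile normalization called 3 genes for genotype, and a fit with no variance trend called 0 for sex (4 otherwise). Members called stayed at 0 in every fit run, with a smallest limma adjusted p from 0.11 (without Ncstn KO replicate 1) to 1. Same-numbered replicates deviated in opposite directions (r = -0.24), so the numbers were not taken to pair the samples. With the replicate block 0 genes were called (smallest adjusted p of a member 0.97), and with sex as a block also 0 (0.46). The female pair, chosen after seeing the data, had 22 members below WT. Leaving out 1 array gave 0 to 27 genes called for genotype (23 without Ncstn KO replicate 1, 27 without Ncstn KO replicate 2), 23 to 43 members below WT, medians of -0.26 to -0.034 (replication) and -0.27 to 0.036 (mitosis), and 0 to 2 genes called for sex. The most negative medians came without Ncstn KO replicate 1, the highest without Ncstn KO replicate 2. A sign turned for 17 members without Ncstn KO replicate 2, for 3 without Ncstn KO replicate 1, for 4 without WT replicate 1 and for 6 without WT replicate 2. The ranges of these members over the 4 fits were: Mcm2 -0.30 to 0.16, Mcm7 -0.12 to 0.090, Cdc6 -0.24 to 0.042, Cdc45 -0.48 to 0.27, Gins1 -0.33 to 0.075, Fen1 -0.24 to 0.018, Rrm1 -0.28 to 0.054, Rrm2 -0.12 to 0.051, Ccne1 -0.37 to 0.67, Ccna2 -0.21 to 0.075, Ccnb2 -0.16 to 0.17, Cdk1 -0.27 to 0.036, Aurka -0.33 to 0.26, Plk1 -0.78 to 0.31, Birc5 -0.17 to 0.0031, Cdca8 -0.19 to 0.10, Bub1b -0.30 to 0.13, Cdc20 -0.022 to 0.23, Ube2c -0.30 to 0.14, Kif20a -0.27 to 0.18, Tpx2 -0.46 to 0.054, Cenpe -0.44 to 0.029. The other 21 members kept their sign, and 20 of them moved by over 1.5 times without some array: Mcm3 -0.24 to -0.051, Mcm4 -0.22 to -0.0069, Mcm5 -0.26 to -0.074, Mcm6 -0.22 to -0.047, Cdt1 -0.13 to -0.0068, Gins2 -0.50 to -0.034, Pola1 -0.79 to -0.21, Prim1 -0.15 to -0.079, Pcna -0.19 to -0.017, Lig1 -0.67 to -0.16, Tyms -1.34 to -0.29, E2f1 -0.49 to -0.035, Ccne2 -0.76 to -0.066, Aurkb -0.45 to -0.0024, Bub1 -0.27 to -0.016, Ttk -0.61 to -0.16, Kif11 -0.24 to -0.027, Nusap1 -0.21 to -0.051, Cenpf -0.21 to -0.066, Mki67 -0.10 to -0.012, Top2a -0.17 to -0.027 (Prim1 moved less). An arm with 1 array was assumed to vary like the other group. The cause of these shifts was not tested, and 2 arrays per group limit all values.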
